A study of Homo sapiens with 17 samples.

Results

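The comparison set new RNA from cells given intetumumab at 1.5 µg/ml against new RNA from cells given an isotype antibody. How long thiouridine was present is not given in the sources used here, so how much of the labelling overlapped the treatment is not known. It comprised 6 of the 17 libraries of the series, 3 from each group, chosen by their labels and not by any measured value. All 6 came from SNU-761, an established line of human liver carcinoma labelled as wild type, collected at 4 h of treatment. The treated cells received an intetumumab biosimilar, described in the labels as an antibody against ITGAV with ITGB3. The controls received human myeloma IgG1 kappa, and their labels give 5 µg/ml, so the doses of the 2 antibodies were not matched. Intetumumab at 5 µg/ml (3 libraries of the same experiment) was fitted together with these 6 libraries. It thus shaped the filter, scaling and spread behind the main tests of 1.5 µg/ml against the isotype. Its values are given below only for comparison with those at 1.5 µg/ml. The labels do not say whether replicates were separate cultures, and the p-values below therefore reflect no more than the spread between these libraries, which may be technical.

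Integrins are cell-surface receptors made of an alpha and a beta chain. Those with the alpha-v chain bind matrix proteins such as vitronectin, fibronectin and osteopontin, connect them to actin at focal adhesions, and can release active TGF-beta from its latent form. SLAM-seq reads recent transcription: cells take up thiouridine, iodoacetamide alkylates it, and the base is then read as C in place of T, so that reads with T>C conversions are taken as newly made RNA. Whether these cells made less or more of an alpha-v chain, a ligand or a focal adhesion protein was not analysed here, because the count table gives Ensembl gene IDs without names and 0 of its 19867 IDs could be matched to a symbol in the RefSeq table for GRCh38.p14. The identity of the cell line was not checked against marker genes for the same reason. For each comparison no more than 2 IDs are printed in either direction, and other genes are described by their values.

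The 6 libraries held between 481424 and 950281 T>C counts, with the lowest total in replicate 3 of the treated group. The unlabelled library of the experiment, made from cells without thiouridine, held 4553 counts, or 0.599% of the mean of the 6, and 8046 of the 9024 genes tested (89.2%) had no count in it. The depth behind the unlabelled library was not compared, so these values do not give a rate of T>C reads without thiouridine. Spearman correlations across the genes tested were 0.901 to 0.908 between isotype libraries, 0.862 to 0.899 between treated libraries and 0.865 to 0.908 between groups. The lowest correlations within and between groups all involved treated replicate 3. By chi-square per degree of freedom, pairs differed by 3.82 to 3.99 within the isotype group, 4.11 to 5.13 within the treated group and 4.49 to 5.42 between groups. Without treated replicate 3, the 6 pairs between groups (4.49 to 4.76) all exceeded the 4 within groups (3.82 to 4.11) by chi-square. By Spearman correlation the same pairs overlapped, at 0.894 to 0.908 between groups and 0.899 to 0.908 within them. Treated replicate 3 stood out by these same values, so no separation of the groups is read from leaving it out. Amplified reads are not independent molecules, so values above 1 do not show that the libraries are separate samples; each was counted as one from its label.

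No gene passed the test at 1.5 µg/ml. Of 9024 genes, edgeR's quasi-likelihood test called 0 (0%) at a Benjamini-Hochberg adjusted p under 0.05, and the smallest adjusted p was 0.171, shared by 4 genes. Before adjustment, 217 genes with higher values (2.4%) and 277 with lower values (3.07%) had p under 0.05. Under total count scaling this split turned, to 267 higher and 240 lower. In a bulk culture, fewer cells making a transcript and less of it made per cell cannot be told apart. The 3 treated libraries all lay above the 3 isotype libraries in 507 genes (5.62%) and all below them in 606 (6.72%). At a fold of at least 2 this held for 98 genes above and 99 below. With no difference between the groups, a share of about 0.05 of genes would have an unadjusted p under 0.05. A share of about 0.1 would separate in either direction with 3 against 3 libraries. Nothing is therefore read from these numbers of genes. The median log2 fold change over all genes was 0.01, and the middle of the distribution was narrow, with quartiles of -0.24 and 0.25.

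DESeq2, run as an alternative on the same libraries and genes, called 35 of the 2376 genes for which it gave an adjusted p (1.47%). It left the adjusted p undefined for the other 6648 genes. Its calls were 31 genes lower (1.3%) and 4 higher (0.168%) at 1.5 µg/ml. DESeq2 gave no adjusted p at low levels, so its calls could come only from abundant genes, and their abundance is not a result. The 31 lower genes had a median percentile of 97.4 by mean count among the genes tested, and the lowest was 79.9. Their changes were small, with log2 fold changes of -0.39 to -0.94 and a median of -0.66. They were picked on these same libraries, so their separation adds nothing: all 31 had treated libraries wholly below the isotype libraries. All 31 also had an unadjusted p under 0.05 in edgeR, with edgeR's adjusted p between 0.171 and 0.576.

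**Figure D1:**
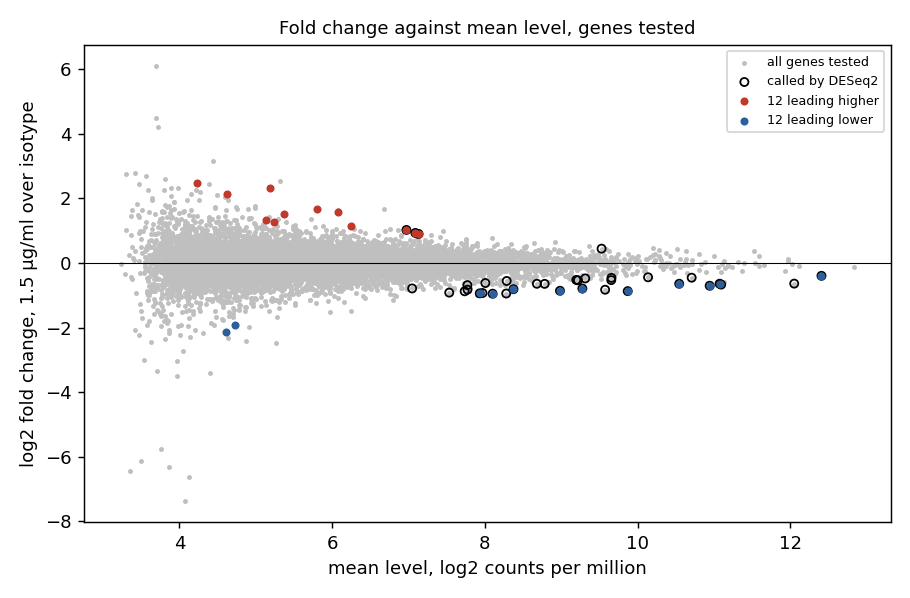
Log2 fold change of intetumumab 1.5 µg/ml over isotype (vertical) against mean level in log2 CPM, counts per 1e6 (horizontal) for the 9024 genes tested, with open circles for the 35 genes called by DESeq2 and filled points for the 12 leading genes in each direction. Circles lie mostly below 0 on the right, among abundant genes, while 9 of the 12 leading higher genes lie to the left, at levels where DESeq2 gave no adjusted p.

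The genes printed next were taken by smallest unadjusted p among genes whose groups did not overlap. Their separation is therefore how they were chosen and is only a description. Among the lower values, the smallest p belonged to ENSG00000167767. Its counts per 1e6 after TMM scaling (CPM) were 372, 378 and 339 with the isotype, and 199, 176 and 192 with the treatment. Every treated library was below every isotype library, as the choice required. The means were 363 ± 21.1 and 189 ± 11.8 CPM (SD, n = 3 each), for a log2 fold change of -0.94 (SE 0.16, edgeR adjusted p = 0.171; 95% interval -1.28 to -0.60). DESeq2 gave -0.94 with an adjusted p of 4.48e-05. The raw counts of this gene were even in all labelled libraries of the series, so fewer reads may lie behind them than the counts say. No count was found in the unlabelled library.

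ENSG00000106366 was an abundant transcript, at percentile 99.5 of genes by mean count. Isotype libraries stood at 2030, 2080 and 1890 CPM and treated libraries at 1380, 1320 and 1130 CPM. The groups did not overlap, and treated replicate 3, the library with the fewest counts, was the lowest. The means were 2000 ± 96.6 and 1280 ± 131 CPM (SD, n = 3 each), for a log2 fold change of -0.64 (SE 0.11, edgeR adjusted p = 0.171; 95% interval -0.88 to -0.40). DESeq2 gave -0.63 with an adjusted p of 3.62e-05. Between 542 and 1754 raw counts lay behind each library's value. Amplified reads are not independent molecules, so these counts do not give the size of the counting error.

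Among the higher values, ENSG00000077063 led. It had 3, 8 and 8 raw counts with the isotype against 34, 38 and 15 at 1.5 µg/ml, or 4.10, 11 and 8.64 CPM against 45.7, 44.0 and 31.3 CPM. The groups did not overlap, as the choice required, and the isotype level rests on 19 counts in all. The means were 7.93 ± 3.53 and 40.4 ± 7.88 CPM (SD, n = 3 each), for a log2 fold change of 2.33 (SE 0.39, edgeR adjusted p = 0.171; 95% interval 1.48 to 3.19). DESeq2 gave a log2 fold change of 2.36 and no adjusted p for it.

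ENSG00000180376 had the next smallest p in that direction. Its isotype libraries stood at 98.4, 105 and 85.3 CPM and its treated libraries at 198, 166 and 186 CPM, again without overlap. The means were 96.2 ± 10.0 and 183 ± 16.2 CPM (SD, n = 3 each), for a log2 fold change of 0.93 (SE 0.19, edgeR adjusted p = 0.310; 95% interval 0.51 to 1.35). DESeq2 called it, at an adjusted p of 0.00510.

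**Figure D2:**
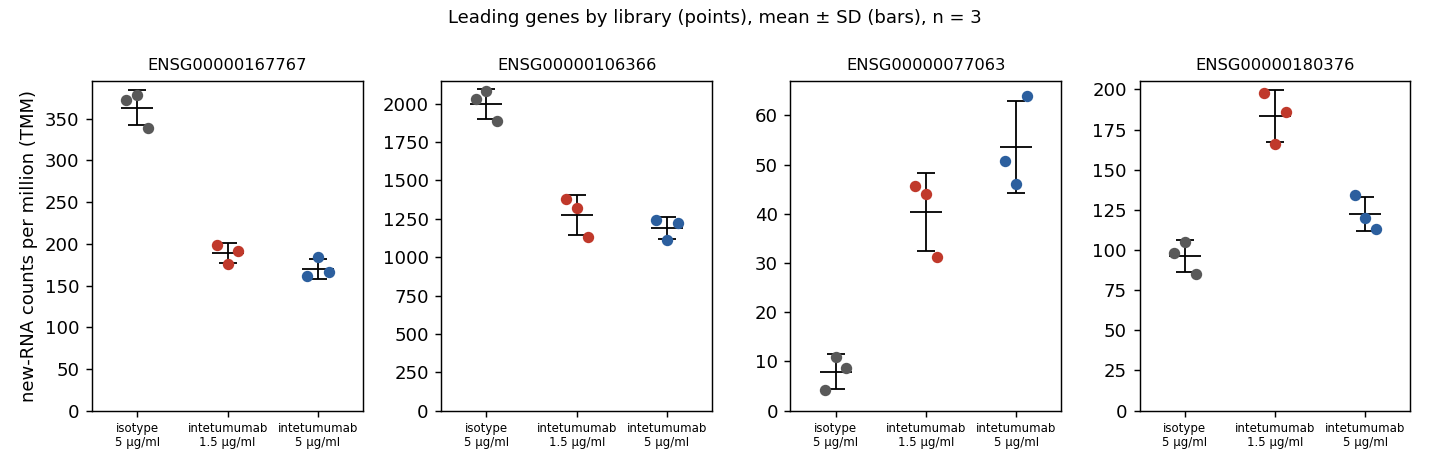
New-RNA counts per 1e6 after TMM scaling (vertical, from 0) of the 4 leading genes in each library (points) with mean ± SD (bars, n = 3) for isotype, intetumumab 1.5 µg/ml and intetumumab 5 µg/ml. For the first 2 genes all treated points lie below the isotype points, as from 372 to 199 CPM in replicate 1 of ENSG00000167767, and for the last 2 genes all lie above.

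The 12 leading genes in each direction differed in level. They were taken by smallest unadjusted p among genes whose groups did not overlap and whose higher group averaged at least 20 CPM, so their separation is how they were chosen and is given as a description. Of the 12 lower genes, 10 lay above percentile 90 by mean count, with a median percentile of 97.2. Their log2 fold changes ran from -0.40 to -2.15 with a median of -0.84. The most abundant of them went from 6630 to 5020 CPM. The only leading lower genes at low levels were at 32.2 and 36.7 CPM with the isotype and at 7.09 and 9.64 CPM at 1.5 µg/ml. The gene at 32.2 CPM had 6, 6 and 3 counts at 1.5 µg/ml. Its counts were multiples of 3 in all 9 libraries of the experiment, so fewer reads may lie behind them. Over all labelled libraries of the series, 2 leading higher genes and 1 leading lower gene had counts with a common divisor above 1. Of the 12 higher genes, 0 lay above percentile 90, and their median percentile was 46.8. Their log2 fold changes ran from 0.90 to 2.48 with a median of 1.41. The adjusted p of edgeR was 0.171 to 0.310 for the lower set and 0.171 to 0.462 for the higher set.

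Together the 12 lower genes held 1.79% of all T>C counts with the isotype and 1.20% with the treatment, as means over libraries, while the 12 higher genes held 0.0429% and 0.103%. In the unlabelled library, 8 of the 12 lower genes and 10 of the 12 higher genes had no count. The largest unlabelled count in the lower set was 5. It was 32 in the higher set, where no gene had more than 148 counts in any labelled library of the experiment. The unlabelled count of that higher gene was thus above 0.1 of its mean over the 6 libraries. This was the limit for exclusion as high in the unlabelled library, and 23 of the leading genes remained under that exclusion. How much of the signal of the higher gene with 32 unlabelled counts was new RNA was not tested.

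The share of counts held by the most abundant genes was smaller at 1.5 µg/ml. The 10 genes with the most counts in each library took 4.86%, 5.10% and 4.95% of the total with the isotype and 4.58%, 4.44% and 4.36% at 1.5 µg/ml. The groups did not overlap (4.97% ± 0.121 and 4.46% ± 0.111, SD, n = 3 each; two-sided exact permutation p = 0.1, the smallest that 3 against 3 libraries allow). Intetumumab libraries at 5 µg/ml had 4.34%, 4.51% and 4.11%. The number of genes detected did not separate the groups. After thinning to 481424 counts, 11178, 11165 and 11282 genes were detected with the isotype and 11253, 11306 and 10812 at 1.5 µg/ml (two-sided exact permutation p = 0.9). Total counts also overlapped (two-sided exact permutation p = 0.6).

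Under TMM scaling, lower values prevailed among the abundant genes with an unadjusted p under 0.05, not over abundant genes as a whole. Over all 2256 genes in the highest of 4 equal abundance bins, the median log2 fold change was -0.01. In that bin, 118 genes had lower and 64 had higher values at an unadjusted p under 0.05, which made 64.8% of them lower. In the lowest 3 bins the numbers were 44 lower and 52 higher, 59 lower and 45 higher, and 56 of each. The split in the highest bin depended on scaling: by total counts it was 100 lower and 86 higher, or 53.8% lower. Under RLE scaling it was 115 lower and 68 higher, or 62.8% lower. TMM factors ranged from 0.978 to 0.989 in isotype libraries but from 1 to 1.01 in treated ones, so scaling moved with the groups.

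The libraries bound the size of any change for many genes. The 95% interval of the fold change lay wholly within 2-fold in either direction for 4236 genes (46.9%), and within 1.5-fold for 914 (10.1%). These intervals are not adjusted for the number of genes. Precision followed the counts: the interval lay within 2-fold for 2.75%, 31.2%, 64.7% and 89.1% of genes in the 4 bins from fewest to most counts. Above percentile 90 by mean count it lay within 1.5-fold for 511 of 903 (56.6%). For the lowest bin, with a median of 12.2 counts per library, changes of 2-fold were mostly not detectable at this depth. Intervals lay wholly beyond 2-fold for 14 of the 9024 genes tested, 5 higher and 9 lower, and none of these passed the adjusted test. They were not all abundant: they include a gene at percentile 1.84 by mean count with no count at 1.5 µg/ml.

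**Figure D3:**
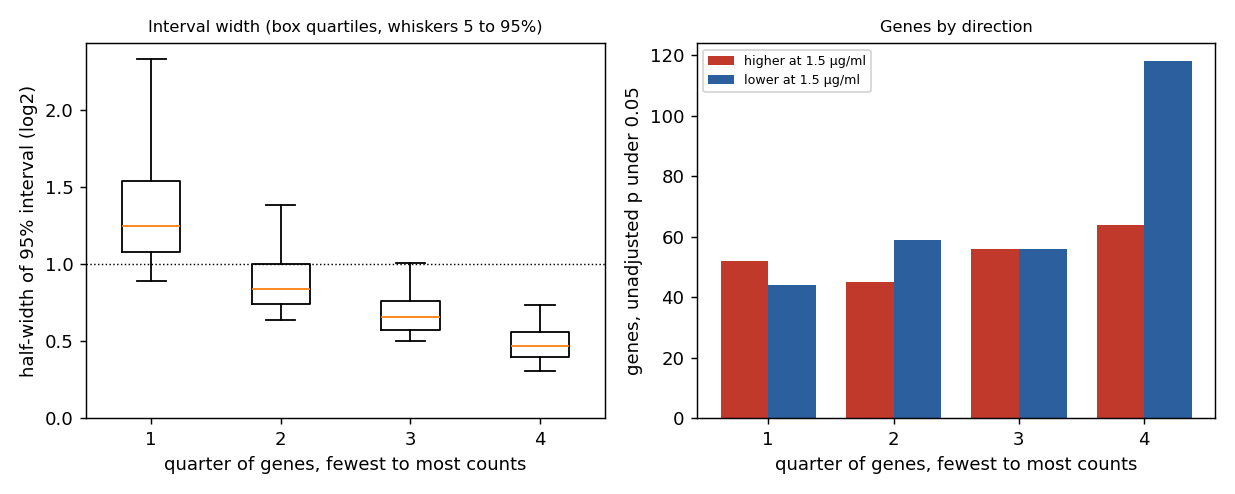
Left, half-width of the 95% interval of the log2 fold change in 4 equal bins of genes from fewest to most counts (boxes are quartiles, whiskers the 5th to 95th percentile), with a dotted line at 2-fold. Right, genes per bin at an unadjusted p under 0.05, higher (red) or lower (blue) at 1.5 µg/ml; medians of the half-width go from 1.25 to 0.47, and the last bin holds 64 higher and 118 lower genes.

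Some of the 19867 genes listed were at 0 in 1 group, and 6693 were at 0 in all 6 libraries. The treated libraries held fewer counts on average (703000 against 818000 with the isotype), so the numbers below are not compared between groups. With no isotype count, 569 genes had counts at 1.5 µg/ml, 18 of them in all 3 treated libraries, and 6 had more than 20 counts in all. With no count at 1.5 µg/ml, 662 genes had isotype counts, 44 of them in all 3 isotype libraries, and 15 had more than 20 counts. The gene with the most counts of the first kind had all 78 in 1 library and did not pass the filter on low counts. The gene with the most of the second kind had 63 counts, between 0 and 36 per library. Against 3 counts over the treated group it was at least 18.4-fold lower at 1.5 µg/ml (edgeR adjusted p = 0.593).

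The direct comparison of 1.5 with 5 µg/ml found 1 gene. edgeR's quasi-likelihood test called 1 of 9024 genes (0.0111%), while 266 genes were higher and 243 lower at 1.5 µg/ml at an unadjusted p under 0.05 (2.95% and 2.69%). The called gene, ENSG00000196998, had 40, 51 and 22 counts at 1.5 µg/ml and no count in any library at 5 µg/ml, so it was at least 35.3-fold higher at the lower dose (edgeR adjusted p = 0.0128). With the isotype it had 5, 10 and 14 counts. Its level at 1.5 µg/ml was thus the highest of the 3 groups (52.9 ± 6.61 CPM, against 11.9 ± 4.45 with the isotype, SD, n = 3 each), and the difference from the isotype did not pass (log2 fold change 2.13, SE 0.44, edgeR adjusted p = 0.310). The call between the doses was lost without treated replicate 1 or 2 at 1.5 µg/ml (edgeR adjusted p = 0.0990 and 0.145) or replicate 3 at 5 µg/ml (0.0598), with the replicate number as a block (0.159) and without the 2 shallowest libraries (0.101). In these 5 fits the fitted log2 fold change, which depends on the prior count, stayed at 8.12 to 8.48. Levels of this gene also varied between libraries of 1 group in the VT107 experiment, scaled apart: 62.1 ± 27.1 CPM with DMSO, 69.5 ± 71.6 at 0.1 µM and 90.7 ± 31.0 at 2.15 µM (SD, n = 2 each).

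In the other direction ENSG00000039650 had the smallest p. It had no count at 1.5 µg/ml, 4, 9 and 9 counts with the isotype and 6, 11 and 30 at 5 µg/ml. Its level at 5 µg/ml was at least 16.7-fold higher than at 1.5 µg/ml (edgeR adjusted p = 0.625), or 10.1-fold without replicate 3 at 5 µg/ml, which held 30 of the 47 counts, and its isotype level was at least 6.42-fold higher than at 1.5 µg/ml (edgeR adjusted p = 0.340). The unlabelled library had 9 counts of this gene, as many as or more than each isotype library. This was above the limit for exclusion as high in the unlabelled library, so the gene dropped out under that exclusion. The depth behind the unlabelled library was not compared, and how much of this gene's signal was new RNA was not tested. The gene lay at percentile 1.84 by mean count and was picked for its small p. Its bounds take the counts of the group above 0 as they stand.

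None of the 4 leading genes passed the test between the doses over all genes, which does not show that their levels were equal. For ENSG00000167767 the level at 5 µg/ml was 171 ± 11.9 CPM, and the log2 fold change of 1.5 over 5 µg/ml was 0.14 (95% interval -0.21 to 0.49). For ENSG00000106366 it was 1190 ± 71.8 CPM, with a log2 fold change of 0.11 (-0.14 to 0.35). These intervals allow differences between the doses of less than 1.5-fold. ENSG00000077063 stood at 53.6 ± 9.36 CPM at 5 µg/ml, with a log2 fold change of -0.40 (-1.13 to 0.33), an interval that reaches beyond 2-fold. ENSG00000180376 was nearer the isotype at the higher dose, at 122 ± 10.6 CPM, with a log2 fold change of 0.59 (0.16 to 1.01). Its edgeR p was 0.0103 before adjustment and 0.793 after it.

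Over the leading sets, the values at 5 µg/ml are set beside those at 1.5 µg/ml, and both use the same isotype libraries. Of the 12 lower genes, 6 were lower still at 5 µg/ml and 6 lay between the isotype and 1.5 µg/ml. The gene called between the doses was 1 of the 12 higher genes. Of the other 11, 2 were higher still at 5 µg/ml and 9 lay in between. Beyond that gene, no leading gene passed the direct test of the doses, although p before adjustment was under 0.05 for 4 higher genes, that one included, and for 3 lower genes. Over all genes the shares were 2.95% higher and 2.69% lower at 1.5 µg/ml, and the leading genes were chosen for extreme values in the same 1.5 µg/ml libraries, so nothing is read from this count.

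**Figure D4:**
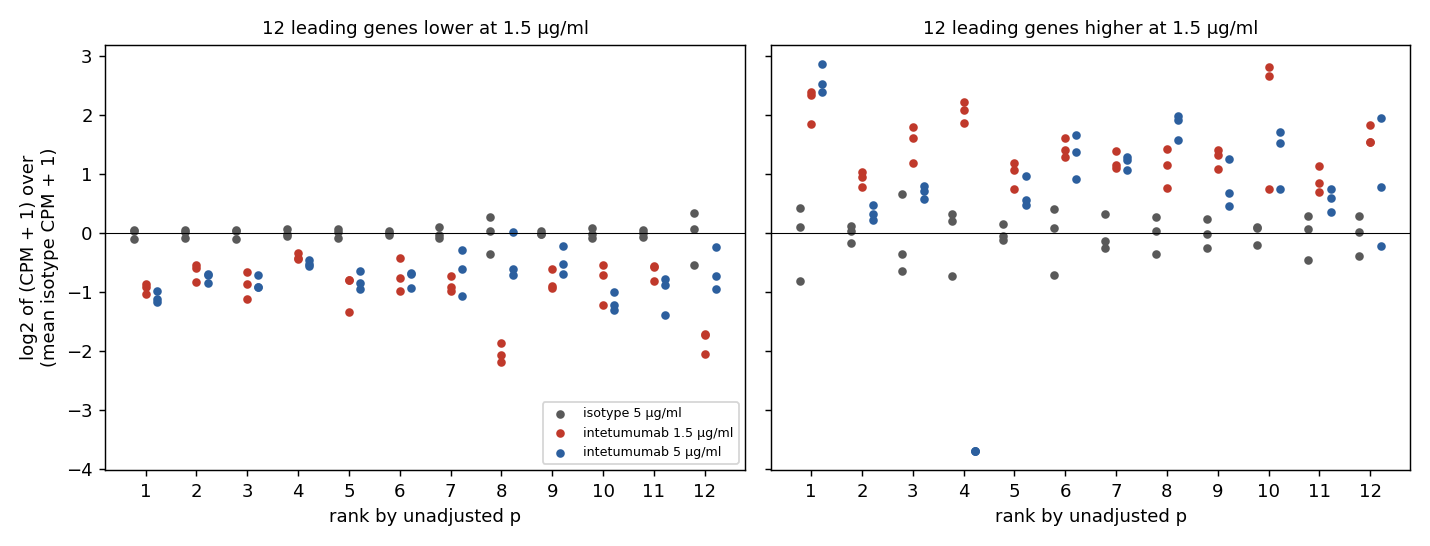
Log2 of CPM plus 1 over the mean isotype CPM plus 1 (vertical) for the 12 leading lower (left) and 12 leading higher (right) genes in order of unadjusted p (horizontal), each point 1 library of isotype (grey), 1.5 µg/ml (red) or 5 µg/ml (blue). Red points lie apart from grey ones by the choice of these genes; blue points lie mostly on the same side, except for rank 4 of the higher genes, which had no count at 5 µg/ml.

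The experiment with VT107, a TEAD inhibitor given to the same cell line and scaled apart, gave levels of the 4 leading genes in libraries that share none with this comparison. ENSG00000167767 was at 337 ± 3.35 CPM with DMSO, 139 ± 0.570 at 0.1 µM and 214 ± 9.81 at 2.15 µM of VT107 (SD, n = 2 each). ENSG00000106366 was at 4400 ± 202, 2760 ± 119 and 2130 ± 320 CPM in the same order. Both were lower in both VT107 groups than with DMSO. ENSG00000077063 was at 16.7 ± 2.36, 53.3 ± 18.8 and 69.3 ± 15.2 CPM, and ENSG00000180376 at 85.9 ± 28.9, 147 ± 8.79 and 130 ± 4.31 CPM, both higher in the VT107 groups. These levels were not tested here. The share of all genes, or of the other leading genes, that moved the same way was not counted, so no agreement between the experiments is read from them.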

How the data were processed

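The authors deposited whole-number counts of T>C reads per gene, unscaled. Per the labels' protocols, libraries were made from 3′ ends (QuantSeq), and per the series design text SLAM DUNK picked the reads of new transcripts. The submitters' processing notes name build GRCh38. The software version, the annotation, the labelling time and how many conversions a read needed were not given in the sources used here. All columns were matched to samples by name.

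The 9 labelled libraries of the intetumumab experiment were fitted together. Genes were kept by edgeR's filterByExpr (minimum count 10; 9024 of 19867 genes, 98.5% of the counts), scaled by TMM and tested with edgeR 4.0.16 in R 4.3.3 (quasi-likelihood F-test, two-sided, Benjamini-Hochberg over all genes, called under 0.05). DESeq2 1.42.0, other scalings, filters, a replicate block, division by common divisors (14.2% of genes tested had counts with one above 1), exclusion of genes high in the unlabelled library and leaving out each library were alternatives. The code was tested on simulated data. Intervals of fold changes come from the fit. A fold against a group at 0 is a bound from 3 counts over that group and takes the counts of the other group as they stand. It covers counting error in the group at 0 only, and amplified copies of 1 molecule are not independent.

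The rule for named genes took called genes, then 12 per direction by smallest unadjusted p without overlap and with at least 20 CPM in the higher group. Its clauses on symbols could not be applied, so 2 IDs per direction are printed. The 25 gene lists and marker lists could not be tested (0 tested) for lack of names. The comparison, lists and rules were chosen with earlier results of these data known.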

Additional observations from a re-analysis of the deposited data

Results flagged for a closer look

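ENSG00000196998 differed between the 2 doses of intetumumab. edgeR's fitted log2 fold change of 1.5 over 5 µg/ml was 8.25 (adjusted p = 0.0128), a value that depends on the prior count because no count was found at 5 µg/ml. The group with 0 counts rests on 3 libraries, and the isotype libraries, with 29 counts in all, lie in between.

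In the unlabelled library, 1 gene with at least 10 counts was counted more often than in the mean of the 6 labelled libraries. It had 20 unlabelled counts against a mean of 9.5 and a range of 2 to 24. These are raw counts from 1 unlabelled library, with no replicate.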

How the results depend on the processing

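At 1.5 µg/ml against the isotype, edgeR called 0 genes in 14 of 16 alternatives, among them leaving out each of the 6 libraries (0 to 0 calls, 403 to 571 genes at an unadjusted p under 0.05), the replicate block (0 calls, 503 genes) and leaving out the 2 shallowest labelled libraries together, an alternative added after the data were seen (0 calls, 514 genes). The exceptions were DESeq2 (35 calls) and the fit of the 2 groups alone (1 call, of an abundant gene at 5740 ± 299 CPM with the isotype and 3680 ± 83.2 at 1.5 µg/ml, adjusted p = 0.0321, against 0.310 in the fit of all 3 groups). With total count scaling the median log2 fold change went from 0.01 to 0.04. Between 1.5 and 5 µg/ml the 1 call became 4 with DESeq2 (3 higher and 1 lower at 1.5 µg/ml), 0 with the replicate block and 0 without the 2 shallowest libraries (p before adjustment under 0.05 for 515 and 611 genes), and 0 to 2 when 1 library was left out (453 to 776 genes), with 2 calls without replicate 2 at 5 µg/ml. Over all genes tested, same-numbered libraries showed no shared deviation (correlations -0.024 to 0.065). Many of these genes had few counts, where a shared deviation would be hard to see, so this cannot decide whether the numbers pair the libraries. The causes of these changes in calls were not tested. All of the 24 leading genes that passed each alternative's filter kept their direction in it, which their choice made likely. The low counts of most genes limit what can be called: intervals reached beyond 2-fold for all but 46.9% of genes.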
